A study of Homo sapiens with 66 samples.

Results

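The comparison covers cultured human spinal motor neurons (hMN) on day 12 of differentiation against day 6. Its members were taken by their labels: the 3 libraries of hMN-D12 and the 3 of hMN-D6, which are 6 of the 66 RNA-sequencing libraries in the series. All cells came from H9, a human embryonic stem cell line of wild-type genotype, and had first been turned into spinal cord neural progenitors (hSCNPC). Both groups had been plated in the same N2B27 medium, with Purmorphamine (an agonist of the hedgehog signal transducer Smoothened), Compound E (a gamma-secretase inhibitor, which blocks the cleavage of Notch) and the neurotrophic factors BDNF, GDNF and NT-3. Libraries of hMN-D18, hMN-D24, hMN-D30 and hMN-D42, 3 of each, enter the fit and the time course. By their labels hMN-D12 and hMN-D6 differed only in the day of collection. They stand for a single cell line, and nothing in the labels says that the 3 libraries of a day came from separate cultures, so the p-values measure the spread between these libraries, which may be technical.

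A spinal neuron is born when a neuroepithelial progenitor leaves the cell cycle. Proneural transcription factors such as the neurogenins drive that exit, and Notch signalling holds neighbouring cells back as progenitors. The young neuron then turns these factors off, extends an axon, and builds the sodium, potassium and calcium channels, the release machinery and the receptors that let it fire and form synapses. Motor neurons are marked by the homeobox factors MNX1 (HB9), ISL1 and LHX3 and by the cholinergic genes CHAT, SLC18A3 and SLC5A7. In bulk RNA, fewer cells of a type and less RNA per cell cannot be told apart.

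On day 12, 18 of 23 proneural genes and 19 of 29 HOX genes were lower than on day 6, and 22 of 25 glutamate receptor genes and 14 of 15 sodium channel genes were higher. Of 20715 genes tested, 5046 were called higher in hMN-D12 (24.4% of all genes tested) and 4920 lower (23.8%), so that 48.1% passed an adjusted p of 0.05 in edgeR's quasi-likelihood test. The median log2 fold change over all genes tested was 0.01. In 5579 of the 20715 genes every hMN-D12 library was above every hMN-D6 library, and in 5429 every one was below. Libraries that do not overlap, as given below for single genes, were thus common in these data. Most of the changes were small: the median was 0.56 among the genes called higher and -0.39 among those called lower, and tested against a 2-fold change with edgeR's glmTreat, 458 genes were higher (2.21% of those tested) and 288 lower (1.39%) in hMN-D12, 3.6% together. Levels are given as CPM, counts scaled to a common library size after TMM normalisation (1000000 counts in all), and a fold change is that of hMN-D12 over hMN-D6 with its standard error (SE).

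The libraries held 14142238 to 21970272 counts, and 3.34% to 4.39% of the scaled counts came from the mitochondrial genome in hMN-D12, against 3.45% to 3.71% in hMN-D6. The root mean square distance between libraries on the log2 CPM scale was 0.66 to 0.72 between the days, against 0.38 to 0.41 within hMN-D12 and 0.37 to 0.41 within hMN-D6. The distance between hMN-D18 and hMN-D12 was 0.46 to 0.50. The direction of change went with gene length: among protein-coding genes, 41.9% of the 3658 with the longest span in the genome were called higher and 21.5% lower, while of the 3658 with the shortest span 18.5% were called higher and 32.7% lower. The median log2 fold change was 0.12 in the long genes and -0.08 in the short genes. The part of gene length in the results that follow was not tested. The counts of genes with overlapping exons are less certain: of the genes named in the results that follow, at least 20% of the exon length is shared with another gene for PRPH, PCDHAC2, DDIT3, CDKN2C, CRABP1, NKX2-2, KCNC2, LHX4, CHRNA5, NGFR, SYT2, NEFM, PAX6, VIM, HOXD8 and TUBB3.

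**Figure D1:**
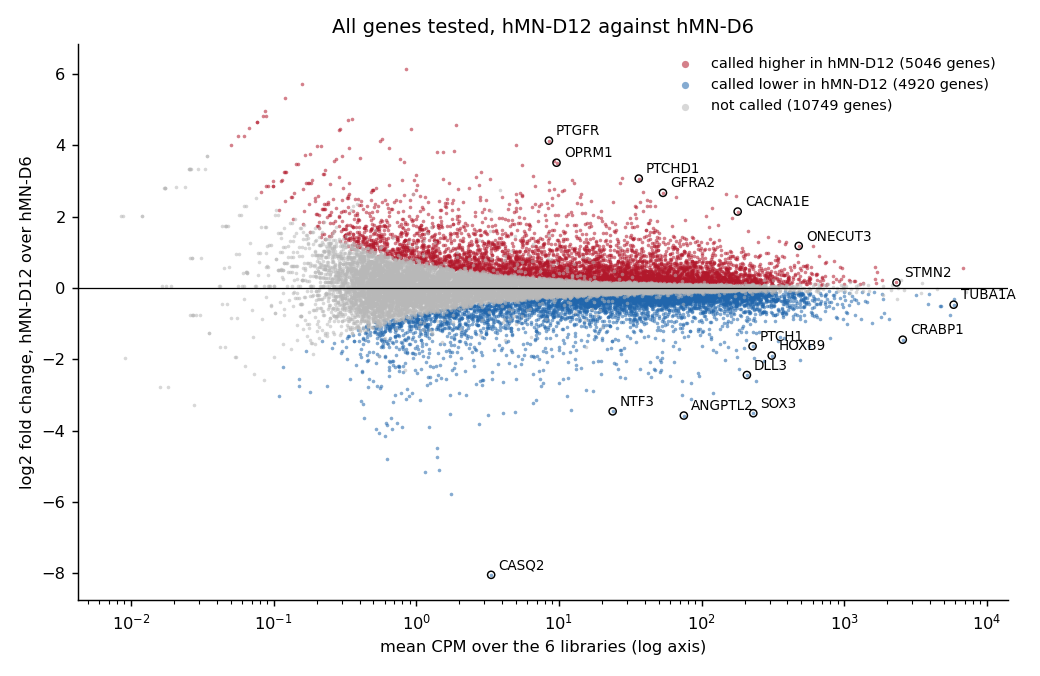
Log2 fold change of hMN-D12 over hMN-D6 (vertical) against the mean CPM over the 6 libraries (horizontal, log axis) for each of the 20715 genes tested. Red points were called higher in hMN-D12 (5046), blue points lower (4920) and grey points not called (10749), and circled genes are described in the text.

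MNX1, ISL1 and LHX3, the homeobox factors that mark motor neurons, had at most 12.9 CPM in any of the 6 libraries. Genes of motor neuron identity did not move as a group. Among 19 tested genes of motor neuron identity, 6 were called higher and 10 lower in hMN-D12, with a median log2 fold change of -0.23. MNX1 had 3.03, 3.15 and 3.31 CPM in hMN-D12, against 3.85, 3.88 and 4.66 CPM in hMN-D6 (log2 fold change -0.38 ± 0.16, edgeR adjusted p = 0.044). Its groups did not overlap, but the call was lost without hMN-D12 library 1, 2 or 3 or hMN-D6 library 2 or 3 (edgeR adjusted p = 0.05 to 0.2) and in DESeq2. ISL1 had 10.5, 10.7 and 10.9 CPM in hMN-D12, against 6.19, 7.38 and 7.07 CPM in hMN-D6, and the log2 fold change was 0.63 ± 0.10 (edgeR adjusted p = 7.7e-07). LHX3, which pairs with ISL1 in newborn motor neurons and with its own complex in V2a interneurons, had 2.38, 1.98 and 2.1 CPM in hMN-D12, against 12.9, 12.4 and 12.7 CPM in hMN-D6 (log2 fold change -2.56 ± 0.16). So ISL1 was higher in every hMN-D12 library and LHX3 lower. ISL2, an ISL1 paralog, rose (6.52 CPM in hMN-D12 against 3.63 in hMN-D6), as did ETV1, a factor of motor neuron pools (15.1 CPM in hMN-D12 against 7.97 in hMN-D6), and ALDH1A2, the retinaldehyde dehydrogenase that limb-level motor neurons carry (6.64 CPM in hMN-D12 against 3.75 in hMN-D6). POU3F1 (SCIP) fell to 12.4 CPM in hMN-D12 against 40.9 in hMN-D6. FOXP1, the cofactor of limb-level columns, fell to 6.52 CPM in hMN-D12 against 8.42 in hMN-D6, although its libraries overlapped and the call was lost without hMN-D6 library 3 (edgeR adjusted p = 0.055). LHX1 was listed at or near 0 in all 6 libraries.

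The ONECUT factors, early markers of spinal neurons, parted. ONECUT3 had 692, 631 and 674 CPM in hMN-D12, against 279, 299 and 302 CPM in hMN-D6 (log2 fold change 1.18 ± 0.04, edgeR adjusted p = 1.4e-27), which put all hMN-D12 libraries above those of hMN-D6. ONECUT2 fell by 0.39 on the log2 scale, to 1256 CPM in hMN-D12 against 1650.0 CPM in hMN-D6. ONECUT1 fell by 0.32, with libraries that overlapped (243, 235 and 273 CPM in hMN-D12 against 252, 342 and 346 in hMN-D6) and a call that was lost without hMN-D12 library 1 or 2 or hMN-D6 library 2 or 3 (edgeR adjusted p = 0.11 to 0.17).

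Factors of other ventral and dorsal spinal classes were on both sides of the motor neuron factors in level per length of transcript. Divided by the length of all exons, MNX1 had 0.750 CPM per kilobase in hMN-D12 against 0.980 in hMN-D6 and ISL1 3.80 in hMN-D12 against 2.44 in hMN-D6. SOX14, a V2 factor, had 36.6 in hMN-D12 against 28.5 in hMN-D6. LBX1, of dorsal interneurons, had 37.4 in hMN-D12 against 59.6 in hMN-D6, and LHX4, shared by motor neurons and V2 cells, 18.1 in hMN-D12 against 23.6 in hMN-D6. GATA3, of V2b interneurons, was below MNX1 on both days, with 0.252 CPM per kilobase in hMN-D12 against 0.0366 in hMN-D6. Of 15 tested genes of the V0 to V3 classes, 4 were called higher and 9 lower (median log2 fold change -0.40). The steepest fall was that of EVX1, which marks V0 interneurons, with 2 counts in hMN-D12 and 68 in hMN-D6, a ratio of 32.5 with a 95% counting interval of 8.67 to 274. BHLHE22, a factor of V1 and dorsal cells, fell to 1.97 CPM in hMN-D12 against 13.1 in hMN-D6. LHX5 fell to 10.1 CPM in hMN-D12 against 33.2 in hMN-D6. GATA2 and GATA3, the pair that sets V2b identity, rose at low levels (2.82, 2.03 and 1.73 CPM in hMN-D12 against 0.379, 0.766 and 0.767 in hMN-D6 for GATA2, 0.505, 1.07 and 0.998 CPM in hMN-D12 against 0.126, 0.192 and 0.0548 in hMN-D6 for GATA3). These calls were lost for GATA2 on leaving out any one library (edgeR adjusted p = 0.052 to 0.11) and for GATA3 without hMN-D12 library 2 or 3 or hMN-D6 library 1, 2 or 3 (edgeR adjusted p = 0.055 to 0.092). Among 11 dorsal interneuron genes, 2 rose and 4 fell (median -0.46). LHX9, of dI1 cells, rose most (0.230 CPM in hMN-D12 against 0.0393 in hMN-D6), although not without hMN-D12 library 2 or hMN-D6 library 2 (edgeR adjusted p = 0.064 to 0.072). GBX2 rose to 93.1 CPM in hMN-D12 against 64.2 in hMN-D6. PRDM13, which directs dI4 cells in mouse, had 5 counts in hMN-D12 and 148 in hMN-D6 (ratio 28.3, interval 11.9 to 88.5).

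The transporters of the cholinergic synapse were higher on day 12. SLC5A7, the choline transporter of cholinergic terminals, had 66.9, 66.9 and 71.8 CPM in hMN-D12, against 30.01, 32.2 and 29.2 CPM in hMN-D6 (log2 fold change 1.17 ± 0.05, edgeR adjusted p = 3.2e-23). SLC18A3 (VAChT), which fills vesicles with acetylcholine, had 37.6, 37.5 and 37.6 CPM in hMN-D12, against 23.6, 22.4 and 23 CPM in hMN-D6 (log2 fold change 0.71 ± 0.06, edgeR adjusted p = 3.8e-13). The libraries of the 2 days did not overlap for either gene. CHAT, the synthetic enzyme, had 2.53, 2.03 and 2.63 CPM in hMN-D12, against 1.64, 1.49 and 2.03 CPM in hMN-D6, with a log2 fold change of 0.47 ± 0.21 that missed the threshold (edgeR adjusted p = 0.058). The lowest hMN-D12 library and the highest hMN-D6 library of CHAT met at 2.03 CPM, and the gene passed without hMN-D12 library 2 or hMN-D6 library 3 (edgeR adjusted p = 0.033 to 0.035). ACHE, which breaks acetylcholine down, had 145 CPM in hMN-D12 against 67.5 in hMN-D6. Its relative BCHE fell to 10.2 CPM in hMN-D12 against 17.2 in hMN-D6. In the whole list of cholinergic and motor neuron effector genes, 6 of 14 tested rose and 5 fell (median 0.35). PRPH (peripherin, an intermediate filament of motor and sensory neurons) fell to 1.26 CPM in hMN-D12 against 3.31 in hMN-D6. AGRN, which motor axons secrete to cluster acetylcholine receptors on muscle, fell to 538 CPM in hMN-D12 against 687 in hMN-D6.

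Markers of other transmitters ran both ways. SLC17A6 (VGLUT2) was at 0.759 CPM in hMN-D12 against 0.633 in hMN-D6 and TH, the rate-limiting enzyme of dopamine synthesis, at 2.78 CPM in hMN-D12 against 3.20 in hMN-D6, neither called. SLC17A7 (VGLUT1) rose at a level near 2 CPM (1.95, 2.99 and 2.31 CPM in hMN-D12 against 1.39, 1.15 and 1.53 in hMN-D6). GAD1, which makes GABA, fell slightly (21.2 CPM in hMN-D12 against 27.9 in hMN-D6, log2 fold change -0.38 ± 0.07). SLC6A5, the glycine transporter of inhibitory neurons, fell to 4.09 CPM in hMN-D12 against 13.4 in hMN-D6. NOS1, neuronal nitric oxide synthase, rose most (1.79 CPM in hMN-D12 against 0.539 in hMN-D6). DBH and DDC, enzymes of catecholamine synthesis, fell to 17.9 CPM in hMN-D12 against 51.2 in hMN-D6 and 5.34 CPM in hMN-D12 against 18.5 in hMN-D6. SST (somatostatin) rose to 18.1 CPM in hMN-D12 against 14.6 in hMN-D6. Of 19 tested genes of other transmitter phenotypes, 4 rose and 7 fell (median -0.05).

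The proneural list had the lowest median of all 52 lists examined. Of 23 tested genes, 18 were called lower in hMN-D12 and 2 higher, with a median log2 fold change of -1.07 beside 0.01 over all genes. INSM1, a zinc-finger factor of cells that have just committed, had 60.3, 67.2 and 60.6 CPM in hMN-D12, against 309.6, 309 and 287 CPM in hMN-D6 (log2 fold change -2.26 ± 0.05, edgeR adjusted p = 9.7e-35). It was 4.80-fold lower in hMN-D12, with every hMN-D12 library far below every hMN-D6 library. ST18, a relative of MYT1, fell to 16.1 CPM in hMN-D12 against 129.9 in hMN-D6. NHLH1, which follows the neurogenins in newborn neurons, fell to 8.93 CPM in hMN-D12 against 43.2 in hMN-D6. NEUROG1 and NEUROG2 fell to 0.790 CPM in hMN-D12 against 8.97 in hMN-D6 and 13.2 CPM in hMN-D12 against 30.2 in hMN-D6. EBF2, a factor of migrating newborn neurons, fell to 2.48 CPM in hMN-D12 against 20.5 in hMN-D6. The 2 members that rose were MYT1L, which keeps the neuronal state (81.8 CPM in hMN-D12 against 51.7 in hMN-D6), and EBF1 (129.8 CPM in hMN-D12 against 119 in hMN-D6). The call of EBF1 was lost without hMN-D12 library 1 or 3 or hMN-D6 library 1 or 3 (edgeR adjusted p = 0.054 to 0.23) and in DESeq2. SOX4 did not pass (983 CPM in hMN-D12 against 981 in hMN-D6, log2 fold change 0.00 ± 0.04). Its relative SOX11 fell to 1312 CPM in hMN-D12 against 2303 in hMN-D6.

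Progenitor genes fell with them, though less evenly. Among 20 tested pan-neural progenitor genes, 11 were lower and 3 higher (median -0.29). SOX3 had 37.8, 38.9 and 34.7 CPM in hMN-D12, against 441, 416 and 414 CPM in hMN-D6, the largest change of the list (log2 fold change -3.51 ± 0.05, edgeR adjusted p = 1.6e-39). SOX2, the core factor of neural progenitors, had 103, 98.5 and 104 CPM in hMN-D12, against 206, 201 and 195 CPM in hMN-D6 (log2 fold change -0.98 ± 0.05). NES (nestin), their intermediate filament, had 672, 751 and 665 CPM in hMN-D12, against 1237, 1285 and 1307 CPM in hMN-D6 (log2 fold change -0.88 ± 0.04). No hMN-D12 library reached the lowest hMN-D6 library for these 3 genes. PAX6 fell to 8.70 CPM in hMN-D12 against 49.8 in hMN-D6, and its exons share 26.3% of their length with other genes, so that its counts are less certain. SOX9 rose to 23 CPM in hMN-D12 against 13 in hMN-D6, VIM was not called (75.4 CPM in hMN-D12 against 74.7 in hMN-D6), and the Notch effector HES5 was at or near 0. Among 15 ventral progenitor genes, 6 were lower and 3 higher (median -0.32). DBX1, of the domain that gives V0 neurons, fell to 107 CPM in hMN-D12 against 441 in hMN-D6. PRDM8 fell to 17.3 CPM in hMN-D12 against 149.9 in hMN-D6. NKX6-1, which spans the ventral progenitors and persists in some motor neurons, fell to 72 CPM in hMN-D12 against 104 in hMN-D6. OLIG2, which marks the progenitors of motor neurons, was at 1.73, 5.13 and 2.15 CPM in hMN-D12 against 3.54, 3.50 and 5.10 in hMN-D6. It was not called, and passed without hMN-D12 library 2 (edgeR adjusted p = 0.0033). NKX2-2 was at 0.738 CPM in hMN-D12 against 1.13 in hMN-D6 and not called. Of 7 dorsal progenitor genes ZIC1 and GDF7 rose (7.59 CPM in hMN-D12 against 3.02 in hMN-D6 and 3.22 CPM in hMN-D12 against 1.86 in hMN-D6). PAX3 fell to 0.317 CPM in hMN-D12 against 2.07 in hMN-D6.

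Transcripts of dividing cells were counted on both days. None of 22 mitosis genes was called by edgeR or by DESeq2, with 2 at an unadjusted p under 0.05. MKI67 was at 12.8 CPM in hMN-D12 against 11.6 in hMN-D6 and TOP2A at 11.9 CPM in hMN-D12 against 13.3 in hMN-D6, and the summed level of the list was 94.8 to 121.6 CPM in hMN-D12 and 110.6 to 120.1 CPM in hMN-D6. In the DNA replication list 6 of 20 were lower, 2 higher and 12 not called (median log2 fold change 0.03). The share called was below the 48.1% over all genes tested, of which 23.8% were lower and 24.4% higher. E2F1, the S-phase activator, fell to 9.57 CPM in hMN-D12 against 25.8 in hMN-D6. MCM7, a helicase subunit, fell to 98.1 CPM in hMN-D12 against 160.4 in hMN-D6. PCNA, the replication clamp, fell to 28.4 CPM in hMN-D12 against 38 in hMN-D6. MCM4 and PRIM1 rose (47.6 CPM in hMN-D12 against 34.4 in hMN-D6 and 4.13 CPM in hMN-D12 against 2.40 in hMN-D6). Of the inhibitors of cyclin-dependent kinases, CDKN2C and CDKN2D rose to 0.839 CPM in hMN-D12 against 0.311 in hMN-D6 and 108 CPM in hMN-D12 against 58.7 in hMN-D6. CDKN1A fell to 51.3 CPM in hMN-D12 against 79.2 in hMN-D6, as did the G1 kinase CDK6 (5.51 CPM in hMN-D12 against 9.58 in hMN-D6). CDKN1C spread widely within each day (18.3, 4.67 and 16.2 CPM in hMN-D12 against 14.8, 49.9 and 15.5 in hMN-D6) and was not called.

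Notch ligands and fringes fell steeply, in a medium that held the gamma-secretase inhibitor on both days. Of 18 tested genes of the pathway, 10 were lower and 2 higher (median -0.38). The ligand DLL3 had 66.2, 67.2 and 60.7 CPM in hMN-D12, against 366, 351 and 336 CPM in hMN-D6 (log2 fold change -2.44 ± 0.05, edgeR adjusted p = 1.7e-36). The ligand JAG1 had 15, 13.2 and 11.8 CPM in hMN-D12, against 72.5, 77 and 74.9 CPM in hMN-D6 (log2 fold change -2.50 ± 0.07). Both days were well apart for the 2 ligands. DLL4 fell to 7.26 CPM in hMN-D12 against 30.04 in hMN-D6, and the glycosyltransferases LFNG and MFNG, which tune ligand choice, to 2.94 CPM in hMN-D12 against 11.6 in hMN-D6 and 1.41 CPM in hMN-D12 against 12.3 in hMN-D6. The receptor NOTCH1 fell to 17.2 CPM in hMN-D12 against 45.6 in hMN-D6, whereas NOTCH2 and NOTCH3 did not pass (6.55 CPM in hMN-D12 against 5.38 in hMN-D6 and 35 CPM in hMN-D12 against 37.1 in hMN-D6), except NOTCH2 without hMN-D12 library 1 (edgeR adjusted p = 0.0054), when it was higher. NRARP, a feedback target of the pathway, fell to 4.14 CPM in hMN-D12 against 9.59 in hMN-D6, and the ligand JAG2 and the effector HEY1 rose (66.5 CPM in hMN-D12 against 54.6 in hMN-D6 and 8.23 CPM in hMN-D12 against 5.56 in hMN-D6). DLL1 was listed at 0 in all 6 libraries, as was RPS18, a ribosomal protein gene that all cells use, so a listing at 0 is not read here as absence.

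Purmorphamine was likewise present on both days, and the hedgehog receptor gene fell. PTCH1, whose product restrains Smoothened and whose transcription GLI factors induce, had 105, 113 and 115 CPM in hMN-D12, against 316, 356 and 362 CPM in hMN-D6 (log2 fold change -1.63 ± 0.06, edgeR adjusted p = 4.6e-18), and the days did not overlap. GLI2, the main activator, fell to 12 CPM in hMN-D12 against 26.8 in hMN-D6. The co-receptors BOC and GAS1 fell to 23 CPM in hMN-D12 against 43.4 in hMN-D6 and 6.06 CPM in hMN-D12 against 9.55 in hMN-D6. SMO itself fell to 44.3 CPM in hMN-D12 against 56 in hMN-D6. GLI1 and HHIP, which GLI factors also induce, were low and not called (0.725 CPM in hMN-D12 against 0.618 in hMN-D6 and 5.41 CPM in hMN-D12 against 5.98 in hMN-D6). CDON rose to 38.9 CPM in hMN-D12 against 31.1 in hMN-D6. In all, 6 of 12 tested genes were lower and 1 higher (median -0.24). The 9-base GLI binding consensus, written TGGGTGGTC on its reverse strand, was looked for on both strands in the 300 bases around each RefSeq start (250 before and 50 after it, GRCh38.p14). It occurred in 83 of 35116 windows (0.24%), and 9 of the 13 listed hedgehog genes had a window. Of these 9 genes only PTCH1 held the motif, in 1 of its 5 windows, at chr9:95509217-95509516 on the minus strand, where it reads as written here and lies 164 to 172 bases before the start. The window is shown because PTCH1 is the gene of the pathway that changed most, with the motif in capitals:
PTCH1 promoter: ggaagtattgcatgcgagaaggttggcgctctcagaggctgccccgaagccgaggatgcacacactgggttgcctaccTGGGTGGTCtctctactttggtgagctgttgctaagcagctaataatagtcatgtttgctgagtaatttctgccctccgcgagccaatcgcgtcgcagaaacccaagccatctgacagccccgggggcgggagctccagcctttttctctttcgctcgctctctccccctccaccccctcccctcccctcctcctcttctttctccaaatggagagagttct

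HOX genes, which set the position of spinal neurons along the body axis, mostly fell. Of 29 tested among 39 HOX genes, 19 were lower and 2 higher in hMN-D12, with a median of -0.39. HOXB9, of thoracic level, had 131, 131 and 132 CPM in hMN-D12, against 502, 478 and 486 CPM in hMN-D6 (log2 fold change -1.90 ± 0.05, edgeR adjusted p = 4.0e-32). The neighbouring HOXB8 had 144, 143 and 142 CPM in hMN-D12, against 276, 268 and 255 CPM in hMN-D6 (log2 fold change -0.90 ± 0.05). HOXC9, which sets thoracic motor columns, went the other way with 77.8, 70.1 and 73.5 CPM in hMN-D12, against 58.5, 53.4 and 51.9 CPM in hMN-D6 (log2 fold change 0.43 ± 0.05, edgeR adjusted p = 8.0e-10). So these 2 paralogs of group 9 moved in opposite directions, and for each the libraries of the days did not overlap. The brachial gene HOXC6 fell to 25.9 CPM in hMN-D12 against 49.6 in hMN-D6 and HOXB4 to 5.52 CPM in hMN-D12 against 13.6 in hMN-D6. HOXB1, of the hindbrain, fell most (0.212 CPM in hMN-D12 against 1.91 in hMN-D6). HOXD8 rose to 4.12 CPM in hMN-D12 against 2.37 in hMN-D6. The lumbar genes HOXC10 and HOXD10 were at 3.44 CPM in hMN-D12 against 3.16 in hMN-D6 and 0.602 CPM in hMN-D12 against 0.114 in hMN-D6 and not called. HOXD11 was near 0. CRABP1, which binds retinoic acid in the cytoplasm, was among the genes of highest CPM that fell, with 1460.0, 1423 and 1253 CPM in hMN-D12, against 4287, 3572 and 3431 CPM in hMN-D6 (log2 fold change -1.45 ± 0.09), although 45.9% of its exon length is shared with other genes.

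**Figure D2:**
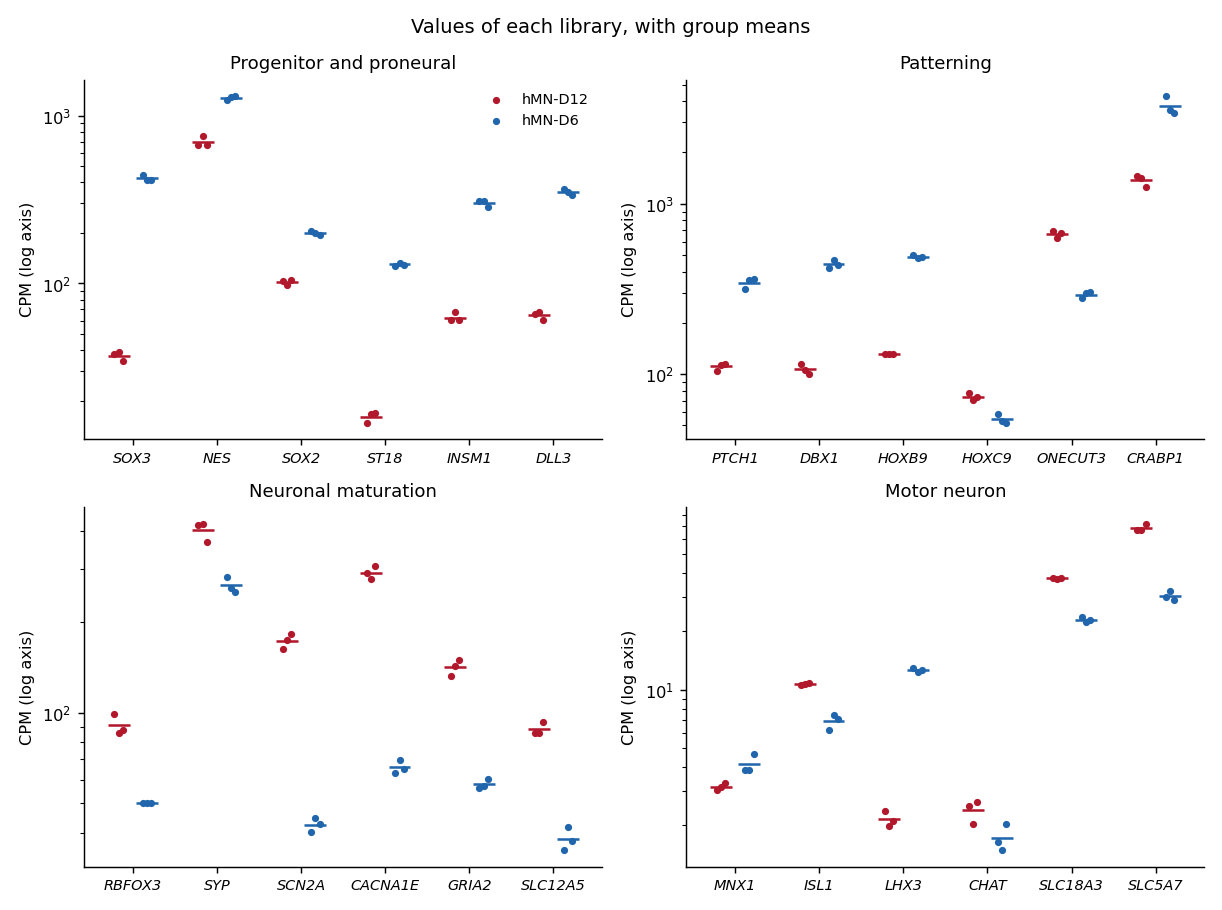
CPM of each library (points, log axes) and the mean of 3 libraries (lines) in hMN-D12 (red, left) and hMN-D6 (blue, right) for 24 genes in 4 groups. The libraries of a day lie close together, and the days are apart for all genes shown except CHAT, where the lowest hMN-D12 library and the highest hMN-D6 library meet near 2.03 CPM.

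Among structural genes of neurons the changes were smaller and ran both ways. Of 20 pan-neuronal genes, 14 were higher and 3 lower (median 0.25). RBFOX3 (NeuN), an RNA-binding marker of mature neurons, had 98.9, 85.8 and 87.5 CPM in hMN-D12, against 50.3, 50.01 and 50.2 CPM in hMN-D6 (log2 fold change 0.85 ± 0.05, edgeR adjusted p = 2.0e-18). Its relative RBFOX1 had 207, 189 and 205 CPM in hMN-D12, against 59.1, 60.1 and 57.4 CPM in hMN-D6 (log2 fold change 1.77 ± 0.05). MAP2, of dendrites, had 1757 ± 106 CPM in hMN-D12 and 1601 ± 82.5 CPM in hMN-D6 (SD, n = 3 each). The rise was small (log2 fold change 0.13 ± 0.04, edgeR adjusted p = 0.0065) and was lost without hMN-D12 library 3 or hMN-D6 library 1 (edgeR adjusted p = 0.088 to 0.12). GAP43, of growing axons, rose to 500.3 CPM in hMN-D12 against 200.5 in hMN-D6. DCX, of migrating young neurons, fell to 3684 CPM in hMN-D12 against 4124 in hMN-D6 (log2 fold change -0.16 ± 0.04). TUBB3, the neuron-specific tubulin, was counted at 23.8, 25.3 and 29.4 CPM in hMN-D12, against 51.1, 51.2 and 56.3 CPM in hMN-D6 (log2 fold change -1.01 ± 0.07). Its exons share 21.3% of their length with an overlapping readthrough gene that was listed at 0, and its counts may hold only part of its reads.

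In the cytoskeleton list 12 of 23 genes rose and 8 fell (median 0.16). The neurofilament genes went different ways: INA rose to 1772 CPM in hMN-D12 against 1489 in hMN-D6 and NEFM fell to 1446 CPM in hMN-D12 against 2355 in hMN-D6. NEFL and NEFH were not called (2569 CPM in hMN-D12 against 2643 in hMN-D6 and 17.7 CPM in hMN-D12 against 19.7 in hMN-D6), with NEFH lower without hMN-D6 library 1 (edgeR adjusted p = 0.012). For INA and NEFM, 13.9% and 26.4% of the exon length is shared with other genes. SPTBN4, the spectrin of the axon initial segment and nodes of Ranvier, rose most (61.9, 58.4 and 59.5 CPM in hMN-D12, against 20.5, 21.8 and 22.8 CPM in hMN-D6). Its anchor ANK3 rose to 545 CPM in hMN-D12 against 349 in hMN-D6. The motors KIF5A and DYNC1I1 rose to 624 CPM in hMN-D12 against 402 in hMN-D6 and 41.6 CPM in hMN-D12 against 23.7 in hMN-D6. Stathmins divided, with STMN4 higher (492 CPM in hMN-D12 against 268 in hMN-D6) and STMN1 lower (1061 CPM in hMN-D12 against 1426 in hMN-D6).

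Channels for the action potential rose almost throughout. Of the 129 channel and receptor genes tested, 84 were among the 3658 coding genes of longest span described above. Of 15 tested sodium channel genes 14 were higher in hMN-D12 and none lower (median 0.84; DESeq2 called 13 higher and none lower, and no gene fell at an unadjusted p under 0.05). SCN2A, an alpha subunit that carries early action potentials, had 163, 174 and 183 CPM in hMN-D12, against 40.05, 44.6 and 42.8 CPM in hMN-D6 (log2 fold change 2.03 ± 0.05, edgeR adjusted p = 9.2e-33). SCN3A, the alpha subunit of the fetal brain, rose less (256 CPM in hMN-D12 against 175 in hMN-D6). SCN8A, of mature nodes, rose least among the brain subunits (78.1 CPM in hMN-D12 against 61.3 in hMN-D6). SCN1A and SCN9A rose to 14.7 CPM in hMN-D12 against 4.22 in hMN-D6 and 26.2 CPM in hMN-D12 against 8.96 in hMN-D6. The auxiliary subunits SCN2B and SCN3B rose to 8.28 CPM in hMN-D12 against 1.71 in hMN-D6 and 338 CPM in hMN-D12 against 177 in hMN-D6, and the leak channel NALCN had 25.1, 22.9 and 25.7 CPM in hMN-D12, against 6.13, 5.94 and 5.15 CPM in hMN-D6 (log2 fold change 2.1 ± 0.08). In each of these genes the lowest hMN-D12 library was above the highest hMN-D6 library.

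Of 41 tested potassium channel genes 30 rose and 8 fell (median 0.73). KCNA2, of axons, had 32.5, 30.5 and 33.8 CPM in hMN-D12, against 6.00, 6.85 and 8.77 CPM in hMN-D6 (log2 fold change 2.15 ± 0.08). KCNQ3, of the M-current, rose to 13.9 CPM in hMN-D12 against 6.11 in hMN-D6. KCNK9, a leak channel, rose to 8.15 CPM in hMN-D12 against 1.82 in hMN-D6. KCNC2, which supports fast firing, rose at a low level (6.72, 5.38 and 5.41 CPM in hMN-D12 against 0.884, 0.814 and 0.384 in hMN-D6), with 35.7% of its exon length shared with other genes. KCNA5 fell most (2.69 CPM in hMN-D12 against 5.87 in hMN-D6). KCNH2, of a current that limits repetitive firing, had 334, 307 and 321 CPM in hMN-D12, against 473, 498 and 499 CPM in hMN-D6 (log2 fold change -0.61 ± 0.04). Calcium channel genes rose in 15 of 20 cases and fell in 2 (median 0.64). CACNA1E, of R-type current, had 291, 278 and 307 CPM in hMN-D12, against 63.1, 69.5 and 65.2 CPM in hMN-D6 (log2 fold change 2.15 ± 0.05, edgeR adjusted p = 3.2e-30). The T-type subunits parted, with CACNA1G and CACNA1I higher (47.1 CPM in hMN-D12 against 16.8 in hMN-D6 and 19.8 CPM in hMN-D12 against 6.49 in hMN-D6) and CACNA1H lower (284 CPM in hMN-D12 against 366 in hMN-D6), and the auxiliary subunit CACNA2D1 fell to 3.76 CPM in hMN-D12 against 4.99 in hMN-D6, but not in DESeq2 or without hMN-D12 library 1 or 3 or hMN-D6 library 2 (edgeR adjusted p = 0.067 to 0.19). CACNA1B, of the N-type current that drives release at young terminals, did not change by more than its SE (-0.01 ± 0.05).

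**Figure D3:**
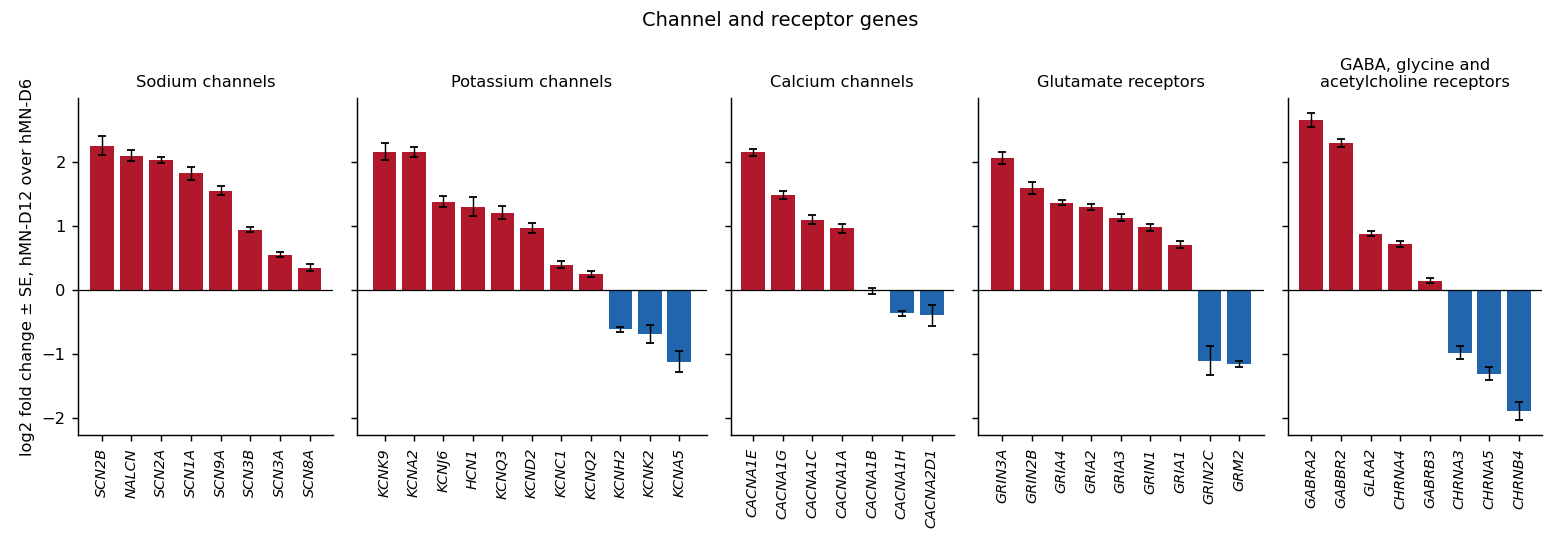
Log2 fold change of hMN-D12 over hMN-D6 (bars) with its SE (whiskers) for selected channel and receptor genes, sorted within each family. Red bars were called higher in hMN-D12, blue bars lower and grey not called. The sodium channels shown are all above 0, and GRM2 (log2 fold change -1.15) and CHRNB4 (-1.89) are at the low end of their families.

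Glutamate receptors had the highest median of the lists of neuronal genes. Of these, 22 of 25 genes were higher and 2 lower, with a median log2 fold change of 1.07. The AMPA receptor subunit GRIA2, which sets calcium permeability, had 133, 143 and 149.6 CPM in hMN-D12, against 56.2, 57 and 60.5 CPM in hMN-D6 (log2 fold change 1.29 ± 0.05, edgeR adjusted p = 1.5e-26). GRIA4 had 186, 195 and 196 CPM in hMN-D12, against 75, 76 and 73.6 CPM in hMN-D6 (log2 fold change 1.36 ± 0.04). The NMDA receptor subunits GRIN1 and GRIN2B rose to 82.3 CPM in hMN-D12 against 41.8 in hMN-D6 and 65.4 CPM in hMN-D12 against 21.8 in hMN-D6. GRIN3A, a further subunit of that receptor, rose to 20.1 CPM in hMN-D12 against 4.81 in hMN-D6. The presynaptic metabotropic receptor GRM2 fell to 58.1 CPM in hMN-D12 against 129 in hMN-D6. In the receptors for GABA, glycine and acetylcholine, 17 of 28 rose and 5 fell (median 0.74). GABRA2 had 21.3, 23 and 29.4 CPM in hMN-D12, against 3.41, 4.12 and 4.22 CPM in hMN-D6 (log2 fold change 2.65 ± 0.11). GABBR2, a subunit of the metabotropic GABA receptor, rose to 69.2 CPM in hMN-D12 against 14.1 in hMN-D6. The fetal glycine receptor subunit GLRA2 rose to 120.4 CPM in hMN-D12 against 65.5 in hMN-D6. GLRA3, a later subunit, rose most (2.99 CPM in hMN-D12 against 0.390 in hMN-D6). All 5 that fell were nicotinic subunits. CHRNA3, CHRNA5 and CHRNB4, which share a gene cluster and assemble together in autonomic neurons, fell to 10.9 CPM in hMN-D12 against 21.4 in hMN-D6, 9.26 CPM in hMN-D12 against 22.9 in hMN-D6 and 2.77 CPM in hMN-D12 against 10.4 in hMN-D6. CHRNA2 and CHRNB2 fell less (by 0.17 and 0.11 on the log2 scale), with overlapping libraries for CHRNB2. The calls were lost for CHRNA2 without hMN-D12 library 2 or hMN-D6 library 2 (edgeR adjusted p = 0.061 to 0.14) and for CHRNB2 without hMN-D12 library 2 or 3 or hMN-D6 library 2 or 3 (edgeR adjusted p = 0.065 to 0.3). CHRNA4, a main neuronal subunit, rose to 152 CPM in hMN-D12 against 92.6 in hMN-D6.

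The chloride gradient decides whether GABA and glycine excite or inhibit a neuron, and its 2 main transporters moved apart. SLC12A5 (KCC2), which extrudes chloride, had 85.7, 85.7 and 93 CPM in hMN-D12, against 34.9, 41.7 and 37.4 CPM in hMN-D6 (log2 fold change 1.21 ± 0.06, edgeR adjusted p = 2.4e-22). SLC12A2 (NKCC1), which takes it up, had 26.7, 28 and 31.5 CPM in hMN-D12, against 37, 38.2 and 39.3 CPM in hMN-D6 (log2 fold change -0.40 ± 0.07, edgeR adjusted p = 1.6e-06). KCC2 was thus higher and NKCC1 lower in every hMN-D12 library. Of 15 chloride and cation transport genes, 12 rose and 1 fell (median 0.69). The plasma membrane calcium pump ATP2B3 rose to 23.6 CPM in hMN-D12 against 6.77 in hMN-D6.

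At the synapse, 23 of 34 genes of vesicles and release rose and 7 fell (median 0.44), and 21 of 27 postsynaptic and adhesion genes rose and 2 fell (median 0.54). SYP (synaptophysin), of the vesicle membrane, had 420.2, 424 and 369.6 CPM in hMN-D12, against 282, 260.3 and 252 CPM in hMN-D6 (log2 fold change 0.61 ± 0.04, edgeR adjusted p = 3.7e-15). DLG4 (PSD-95), the main postsynaptic scaffold, had 457, 412 and 413 CPM in hMN-D12, against 302, 298 and 296 CPM in hMN-D6 (log2 fold change 0.52 ± 0.04, edgeR adjusted p = 3.9e-15). The SNARE gene SNAP25 rose to 226 CPM in hMN-D12 against 151 in hMN-D6. The active zone giant PCLO rose to 133 CPM in hMN-D12 against 57.4 in hMN-D6 and SYN2 to 22.3 CPM in hMN-D12 against 8.52 in hMN-D6. SYT1, a calcium sensor of release, fell with 625, 642 and 649.7 CPM in hMN-D12, against 1129, 1164 and 1166 CPM in hMN-D6 (log2 fold change -0.85 ± 0.04). SYT2, of fast motor terminals, fell to 46 CPM in hMN-D12 against 99.5 in hMN-D6. SYT13, which does not bind calcium, rose to 61.9 CPM in hMN-D12 against 11.6 in hMN-D6. The vesicle protein gene SV2B, with 0.144, 0.203 and 0.368 CPM in hMN-D12 against 0, 0 and 0 in hMN-D6, was listed at 0 on day 6. Among adhesion molecules, NRXN2 rose to 839 CPM in hMN-D12 against 369 in hMN-D6 and IL1RAPL1 to 11.7 CPM in hMN-D12 against 2.64 in hMN-D6. NRXN3 fell to 127 CPM in hMN-D12 against 176 in hMN-D6. CNTN2 (TAG-1), which newborn motor and commissural neurons carry on their axons, had 20.8, 24.7 and 23.5 CPM in hMN-D12, against 141, 143 and 154 CPM in hMN-D6 (log2 fold change -2.66 ± 0.06, edgeR adjusted p = 2.6e-34), the steepest fall of the list.

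**Figure D4:**
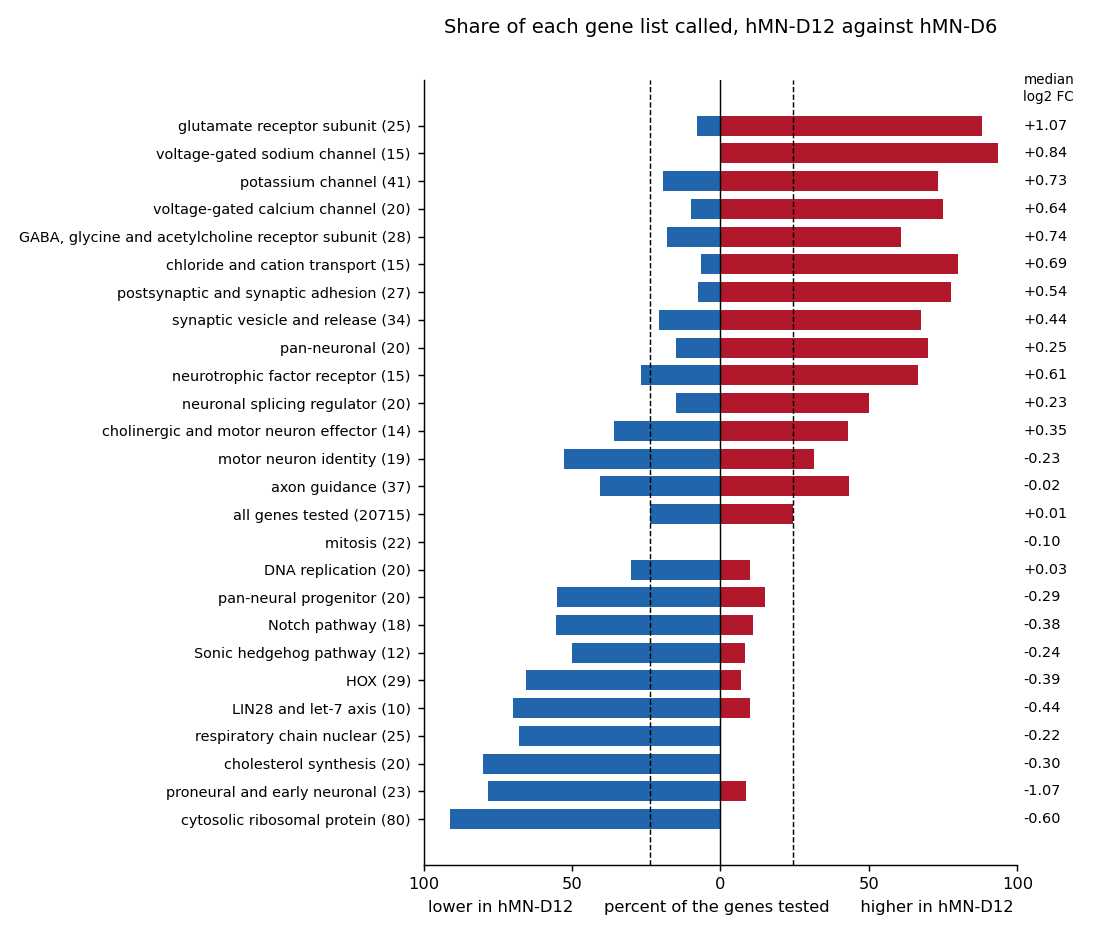
Percent of the tested genes of each list (number in parentheses) called higher (red, right) or lower (blue, left) in hMN-D12, with the median log2 fold change at the right. Dashed lines mark the shares over all genes tested, 24.4% higher and 23.8% lower. Sodium channel (14 of 15) and glutamate receptor genes (22 of 25) reach furthest to the right, and cytosolic ribosomal protein genes (73 of 80) furthest to the left.

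Receptors for the 3 added factors changed unevenly. NTRK2 (TrkB), the BDNF receptor, had 86.7, 92.6 and 97.2 CPM in hMN-D12, against 53.3, 61.8 and 61.6 CPM in hMN-D6 (log2 fold change 0.64 ± 0.05, edgeR adjusted p = 5.6e-15). NTRK3 (TrkC), for NT-3, had 138, 151 and 167 CPM in hMN-D12, against 81.5, 99.7 and 92.6 CPM in hMN-D6 (log2 fold change 0.73 ± 0.07, edgeR adjusted p = 1.0e-07). RET, the signalling receptor for GDNF, had 45.9, 45.5 and 44.6 CPM in hMN-D12, against 25, 22.8 and 25.9 CPM in hMN-D6 (log2 fold change 0.89 ± 0.06, edgeR adjusted p = 2.7e-17). All 3 were higher in each hMN-D12 library. The GDNF co-receptor GFRA1 was lower (75.6, 73.6 and 74 CPM in hMN-D12 against 85.4, 99.7 and 93.2 in hMN-D6, log2 fold change -0.32 ± 0.05). GFRA2, which prefers neurturin, had 98.8, 87 and 92.1 CPM in hMN-D12, against 14.3, 14.7 and 14.5 CPM in hMN-D6 (log2 fold change 2.67 ± 0.06), the largest change of the list. NGFR (p75) fell to 479.9 CPM in hMN-D12 against 702 in hMN-D6, the most of its list. The gene for the ligand BDNF rose to 8.39 CPM in hMN-D12 against 3.92 in hMN-D6. In the list as a whole, 10 of 15 rose and 4 fell (median 0.61). The gene for the ligand NT-3, NTF3, had 4.12, 3.71 and 4.10 CPM in hMN-D12, against 45.8, 41.8 and 43.2 CPM in hMN-D6 (log2 fold change -3.46 ± 0.11, edgeR adjusted p = 5.1e-29).

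Axon guidance genes divided evenly, with 16 of 37 higher and 15 lower (median -0.02). SEMA3E rose most (12.1 CPM in hMN-D12 against 2.43 in hMN-D6), and the repulsive receptors EPHA5 and ROBO2 rose to 65.2 CPM in hMN-D12 against 18.4 in hMN-D6 and 262 CPM in hMN-D12 against 121 in hMN-D6. ROBO3, which lets commissural axons cross the midline, had 12, 14.7 and 13.7 CPM in hMN-D12, against 74.9, 68.4 and 70.00 CPM in hMN-D6 (log2 fold change -2.39 ± 0.07). The netrin gene NTN1 and its receptor DCC fell to 63.2 CPM in hMN-D12 against 169 in hMN-D6 and 501 CPM in hMN-D12 against 724 in hMN-D6, and the chemokine receptors CXCR4 and ACKR3 to 2.74 CPM in hMN-D12 against 17.4 in hMN-D6 and 3.14 CPM in hMN-D12 against 13.4 in hMN-D6.

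LIN28A, an RNA-binding protein of early embryonic cells that blocks the maturation of let-7 miRNAs, had 109.9, 111 and 105 CPM in hMN-D12, against 299.7, 309 and 293 CPM in hMN-D6 (log2 fold change -1.47 ± 0.04, edgeR adjusted p = 1.4e-30). Of 10 genes of the LIN28 and let-7 axis, 7 were lower and 1 higher (median -0.44), and those lower included MYCN (31.4 CPM in hMN-D12 against 67 in hMN-D6), IGF2BP1 (167 CPM in hMN-D12 against 298 in hMN-D6) and TRIM71 (131 CPM in hMN-D12 against 188 in hMN-D6). The host transcript MIR100HG, which contains the hairpins of miR-100, let-7a-2 and miR-125b-1, had 49.5, 50.7 and 50.6 CPM in hMN-D12, against 13.3, 13.1 and 12.4 CPM in hMN-D6 (log2 fold change 1.96 ± 0.07, edgeR adjusted p = 8.2e-26). Mature miRNAs were not measured by these libraries, and 38 miRNA hairpin loci passed the filter, of which 33 had a mature sequence in the RefSeq table. Of these 38, 3 were called higher and 2 lower. Those higher were MIR760 (0.718 CPM in hMN-D12 against 0.380 in hMN-D6), MIR1249 (0.880 CPM in hMN-D12 against 0.505 in hMN-D6) and the locus ENSG00000264834 (0.457 CPM in hMN-D12 against 0.0872 in hMN-D6). MIR10B, which lies in the HOXD cluster, fell to 1.25 CPM in hMN-D12 against 2.14 in hMN-D6. These calls were lost for MIR760 without hMN-D12 library 1 or 2 or hMN-D6 library 1, 2 or 3 (edgeR adjusted p = 0.063 to 0.14), for MIR1249 without hMN-D12 library 1, 2 or 3 or hMN-D6 library 1 or 2 (edgeR adjusted p = 0.052 to 0.28) and for MIR10B without hMN-D12 library 2 or hMN-D6 library 2 (edgeR adjusted p = 0.06 to 0.068). DESeq2 called neither MIR760 nor MIR1249. MIR25, which lies within MCM7, had 0.794, 0.406 and 0.735 CPM in hMN-D12, against 1.39, 1.01 and 1.21 CPM in hMN-D6 (log2 fold change -0.91 ± 0.35, edgeR adjusted p = 0.029), a call lost in DESeq2 and without hMN-D12 library 2 or hMN-D6 library 1 or 3 (edgeR adjusted p = 0.061 to 0.18). MIR218-2, a hairpin of the motor neuron miRNA miR-218, lies within SLIT3. It had 1.16, 1.22 and 0.788 CPM in hMN-D12, against 0.948, 0.575 and 0.932 CPM in hMN-D6 (log2 fold change 0.38 ± 0.30, edgeR adjusted p = 0.32), which overlapped. The mature sequences that these loci encode are shown with bases 2 to 8, the seed that pairs with targets, in capitals, and no seed is shared between them (RefSeq, GRCh38.p14):
hsa-let-7a-5p: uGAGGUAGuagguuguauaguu
hsa-miR-100-5p: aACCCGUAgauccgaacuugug
hsa-miR-125b-5p: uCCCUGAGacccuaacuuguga
hsa-miR-218-5p: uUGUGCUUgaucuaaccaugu
hsa-miR-25-3p: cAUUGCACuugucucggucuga

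The list of early-born and late-born neuron factors divided, with 6 of 14 higher and 7 lower. The NFI factors, which come on late in spinal neurons and glia, rose at low levels: NFIX had 0.794, 0.964 and 0.998 CPM in hMN-D12 against 0.0632, 0.0958 and 0.219 in hMN-D6, NFIA 1.38 CPM in hMN-D12 against 0.636 in hMN-D6, NFIB 1.10 CPM in hMN-D12 against 0.587 in hMN-D6 and NFIC 12.4 CPM in hMN-D12 against 8.34 in hMN-D6, with NFIB not passing without hMN-D12 library 3 (edgeR adjusted p = 0.13). ZFHX3 and POU2F2 fell to 30.9 CPM in hMN-D12 against 96 in hMN-D6 and 61.6 CPM in hMN-D12 against 142 in hMN-D6. MAF rose to 43.2 CPM in hMN-D12 against 33.8 in hMN-D6. Among splicing regulators of neurons, 10 of 20 rose and 3 fell (median 0.23). KHDRBS3 and CELF5 rose to 64.7 CPM in hMN-D12 against 28.4 in hMN-D6 and 255 CPM in hMN-D12 against 136 in hMN-D6. SRRM4, which drives neuronal microexons, fell to 389 CPM in hMN-D12 against 605 in hMN-D6. PTBP1, the progenitor repressor of neuronal exons, fell to 90.2 CPM in hMN-D12 against 136 in hMN-D6. Of the chromatin genes that switch at neuronal exit, the progenitor subunits ACTL6A, SS18 and PHF10 fell (24.3 CPM in hMN-D12 against 40.8 in hMN-D6, 43.7 CPM in hMN-D12 against 64.9 in hMN-D6 and 49.9 CPM in hMN-D12 against 66.5 in hMN-D6). The neuronal subunits ACTL6B and DPF1 rose (136 CPM in hMN-D12 against 110.2 in hMN-D6 and 120.2 CPM in hMN-D12 against 91.3 in hMN-D6). SS18L1 and DPF3 were not called. SMARCA2 (BRM), an ATPase of the complex, rose most (40.3 CPM in hMN-D12 against 21.5 in hMN-D6). Of this list 8 of 19 fell and 4 rose (median -0.17). RCOR2, a corepressor of neural progenitors, fell most (138 CPM in hMN-D12 against 323 in hMN-D6).

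Ribosomal protein genes fell almost throughout. Of 80 tested cytosolic ribosomal protein genes, 73 were lower in hMN-D12 and none higher (DESeq2 called 72 lower and none higher), with a median log2 fold change of -0.60, and all 80 fold changes were below 0. Their summed level was 19000 to 21300 CPM in the 3 hMN-D12 libraries, against 29180 to 34370 CPM in hMN-D6. RPL3, of the large subunit, had 829, 800.2 and 763 CPM in hMN-D12, against 1386, 1276 and 1259 CPM in hMN-D6 (log2 fold change -0.71 ± 0.04). RPS6, of the small subunit, had 228, 236 and 209 CPM in hMN-D12, against 485, 414 and 389 CPM in hMN-D6 (log2 fold change -0.93 ± 0.08). Of these 80 genes, 62 were among the 3658 shortest coding genes described above, whose median was -0.08. Many have processed pseudogenes that share reads, which makes single members less certain. The elongation factors EEF1A1 and EEF2 fell to 3839 CPM in hMN-D12 against 5488 in hMN-D6 and 3267 CPM in hMN-D12 against 4491 in hMN-D6.

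Among the genes of highest CPM that fell were the actins and an alpha tubulin. ACTG1 had 4235, 4054 and 4043 CPM in hMN-D12, against 7007, 6857 and 6770.0 CPM in hMN-D6 (log2 fold change -0.74 ± 0.04), ACTB fell to 3954 CPM in hMN-D12 against 5639 in hMN-D6 and TMSB4X, which binds actin monomers, to 1452 CPM in hMN-D12 against 2647 in hMN-D6. TUBA1A and MAP1B fell to 4908 CPM in hMN-D12 against 6783 in hMN-D6 and 5279 CPM in hMN-D12 against 6565 in hMN-D6, as did GNAS (2978 CPM in hMN-D12 against 3410.0 in hMN-D6). Actins, alpha tubulins and TMSB4X have near-identical copies between which reads can be split. The genes of highest CPM that rose did so by little: STMN2, whose libraries overlapped, had 2449 CPM in hMN-D12 against 2198 in hMN-D6, KIF1A 1972 CPM in hMN-D12 against 1692 in hMN-D6, SPTAN1 1966 CPM in hMN-D12 against 1438 in hMN-D6, NCAM1 1420.0 CPM in hMN-D12 against 1286 in hMN-D6, USP11 1341 CPM in hMN-D12 against 1248 in hMN-D6 and DPYSL2 1273 CPM in hMN-D12 against 1121 in hMN-D6. The calls were lost for NCAM1 without hMN-D6 library 1 (edgeR adjusted p = 0.12) and for USP11 without hMN-D12 library 1 (edgeR adjusted p = 0.064). APP, the amyloid precursor, had 1969, 2053 and 1955 CPM in hMN-D12, against 1319, 1307 and 1324 CPM in hMN-D6 (log2 fold change 0.60 ± 0.03), and the mitochondrial ribosomal RNA MT-RNR2 rose to 8100.0 CPM in hMN-D12 against 5434 in hMN-D6.

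Of the genes called, 3447 higher and 3771 lower had at least 5 CPM in the lowest library of the higher day and no overlap with the other day, and the 15 of largest change in each direction were taken. The prostaglandin receptor PTGFR came first among those that rose, with 16, 15.1 and 17.1 CPM in hMN-D12, against 1.20, 0.671 and 0.932 CPM in hMN-D6 (log2 fold change 4.13 ± 0.14, edgeR adjusted p = 7.8e-28). OPRM1, the mu opioid receptor, had 16.8, 17.1 and 19.2 CPM in hMN-D12, against 1.45, 1.53 and 1.65 CPM in hMN-D6 (log2 fold change 3.52 ± 0.27, edgeR adjusted p = 9.4e-08). PTCHD1, a patched-domain protein of neurons, had 62.9, 62.4 and 69.3 CPM in hMN-D12, against 6.63, 7.90 and 8.50 CPM in hMN-D6 (log2 fold change 3.07 ± 0.07). In all 3 the lowest day 12 library was above the highest day 6 library, which the rule that took them required. The others were the sulfotransferase CHST9 (9.51 CPM in hMN-D12 against 0.570 in hMN-D6), NWD2 (17 CPM in hMN-D12 against 1.42 in hMN-D6), CA10, a secreted ligand of neurexins (10.1 CPM in hMN-D12 against 0.909 in hMN-D6), SOWAHA (11.9 CPM in hMN-D12 against 1.35 in hMN-D6), BRINP3 (49.3 CPM in hMN-D12 against 5.80 in hMN-D6), the bicarbonate transporter SLC4A10 (22.1 CPM in hMN-D12 against 2.69 in hMN-D6), the synaptic adhesion gene SLITRK3 (15 CPM in hMN-D12 against 1.94 in hMN-D6), SLC7A14 (22.7 CPM in hMN-D12 against 2.94 in hMN-D6), the kinase STK32B (47.6 CPM in hMN-D12 against 6.20 in hMN-D6), the receptor phosphatase PTPRT (12 CPM in hMN-D12 against 1.63 in hMN-D6), RALYL (16.1 CPM in hMN-D12 against 2.33 in hMN-D6) and KCNC2.

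Among the genes that fell, CASQ2, a calcium-binding protein of the sarcoplasmic reticulum, had 0, 0 and 1 counts in hMN-D12 against 116, 121 and 126 in hMN-D6. Scaled to library size this is a ratio of 347, with a 95% counting interval of 62 to 13761 (exact, over the 3 libraries of each day). ANGPTL2, a secreted angiopoietin-like protein, had 10.8, 12.4 and 11.4 CPM in hMN-D12, against 139, 135 and 142 CPM in hMN-D6 (log2 fold change -3.58 ± 0.10, edgeR adjusted p = 1.9e-17). Besides SOX3, NEUROG1, NTF3, MFNG, PRDM8, EBF2 and ST18, the list held the protease CAPN13 (0.629 CPM in hMN-D12 against 7.51 in hMN-D6), the crystallin CRYBA1 (2.11 CPM in hMN-D12 against 22.3 in hMN-D6), the ETS factor FLI1 (1.26 CPM in hMN-D12 against 11.8 in hMN-D6), the homeobox gene OTP, of V1 and hypothalamic neurons (4.15 CPM in hMN-D12 against 30.6 in hMN-D6), and LDB3, a Z-disc protein of muscle (3.75 CPM in hMN-D12 against 27 in hMN-D6, with 16.4% of its exon length shared).

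Markers of other cell types were looked for on both days. Of 11 tested astrocyte markers 5 were higher and 2 lower, and their summed level was 303.8 to 333.6 CPM in hMN-D12 and 287.1 to 302.7 CPM in hMN-D6, most of it from SLC1A2 (264 CPM in hMN-D12 against 205 in hMN-D6). GFAP, the defining marker, was at 0.110 CPM in hMN-D12 against 0.2001 in hMN-D6, AQP4 rose to 1.51 CPM in hMN-D12 against 0.121 in hMN-D6 and S100B to 1.81 CPM in hMN-D12 against 1.00 in hMN-D6, although S100B did not pass without hMN-D12 library 3 or hMN-D6 library 2 (edgeR adjusted p = 0.096 to 0.12). Of 9 oligodendrocyte lineage markers 2 rose, among them MBP (23.3 CPM in hMN-D12 against 10.8 in hMN-D6), with MAG and MOG listed at 0 and the list at 139.3 to 141.6 CPM in hMN-D12 against 116.9 to 126.2 in hMN-D6. Of 10 neural crest and Schwann cell markers 4 rose (27.0 to 37.4 CPM in hMN-D12 against 19.0 to 22.0 in hMN-D6), and none fell by edgeR or DESeq2. In the fibroblast and mesenchyme list none of 14 rose by edgeR and 2 fell (144.1 to 181.8 CPM in hMN-D12 against 162.1 to 181.0 in hMN-D6), DESeq2 called 1 higher, and COL3A1, not called, was at 14.3, 23.9 and 23.8 CPM in hMN-D12 against 9.73, 12.6 and 13.7 in hMN-D6. Muscle, endothelium, microglia, epithelium and choroid plexus lists each summed to at most 15.2 CPM in any library of hMN-D12 and 14.1 CPM in hMN-D6. The forebrain and midbrain list summed to 5.85 to 7.35 CPM in hMN-D12 and 2.59 to 3.98 CPM in hMN-D6, and SIX3, one of its 4 genes called higher, was at 0.0722, 0.355 and 0.105 CPM in hMN-D12 against 0.0632, 0 and 0 in hMN-D6 and did not pass without hMN-D12 library 2 or hMN-D6 library 2 (edgeR adjusted p = 0.053 to 0.22). In the floor plate and roof plate list 3 of 7 were higher and 2 lower. The list summed to 87.0 to 94.7 CPM in hMN-D12 and 180.7 to 205.5 CPM in hMN-D6. Most of that sum came from 1 gene, NTN1 (63.2 CPM in hMN-D12 against 169 in hMN-D6). The pluripotency list, with 3 of 3 tested lower, summed to 193.7 to 197.1 CPM in hMN-D12 and 418.9 to 437.6 CPM in hMN-D6, nearly all from LIN28A and DNMT3B, which progenitors also carry, with POU5F1 and NANOG near 0. The share of these cells in the results above was not tested.

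Between day 12 and day 18 the libraries moved less than between day 6 and day 12, by the distances above. A contrast of the change over hMN-D6 to hMN-D12 with the change over hMN-D12 to hMN-D18, which share the hMN-D12 libraries, differed for 5252 of 20715 genes (25.4%), with 2932 positive and 2320 negative differences. HOXB9 went on to 52.6 CPM on day 18, and its first step minus its second was -0.57 ± 0.08 (edgeR adjusted p = 5.8e-07). SCN2A reached 228 CPM on day 18, and its first step was larger by 1.63 ± 0.08 (edgeR adjusted p = 6.2e-21). For both genes the second step was smaller than the first. Of the 25 glutamate receptor genes 18 had a positive difference and 2 a negative one. Of the 23 proneural genes 13 had a negative difference and 2 a positive one. The change from hMN-D6 to hMN-D12, in which these lists stood out, is part of the difference. The counts are therefore no separate support for that change.

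The next 4 genes were chosen after their values were seen. CNTN2, described above, fell to 23 CPM and was at 32.2 CPM on day 18 (difference -3.13 ± 0.11, edgeR adjusted p = 5.9e-25). RGS4, an inhibitor of G protein signalling, had 67.9, 68.3 and 65.7 CPM in hMN-D12, against 426, 402 and 409 CPM in hMN-D6, and 39.1 CPM on day 18. CBLN2, a secreted organiser of synapses, had 258, 265 and 247 CPM in hMN-D12, against 41.7, 40.5 and 42 CPM in hMN-D6, and 264 CPM on day 18 (difference 2.60 ± 0.06, edgeR adjusted p = 8.5e-31). RELN (reelin) had 254, 254 and 277 CPM in hMN-D12, against 62.1, 69.8 and 68 CPM in hMN-D6, and 254 CPM on day 18. So CBLN2 and RELN were at their level of day 12 or close to it on day 18.

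**Figure D5:**
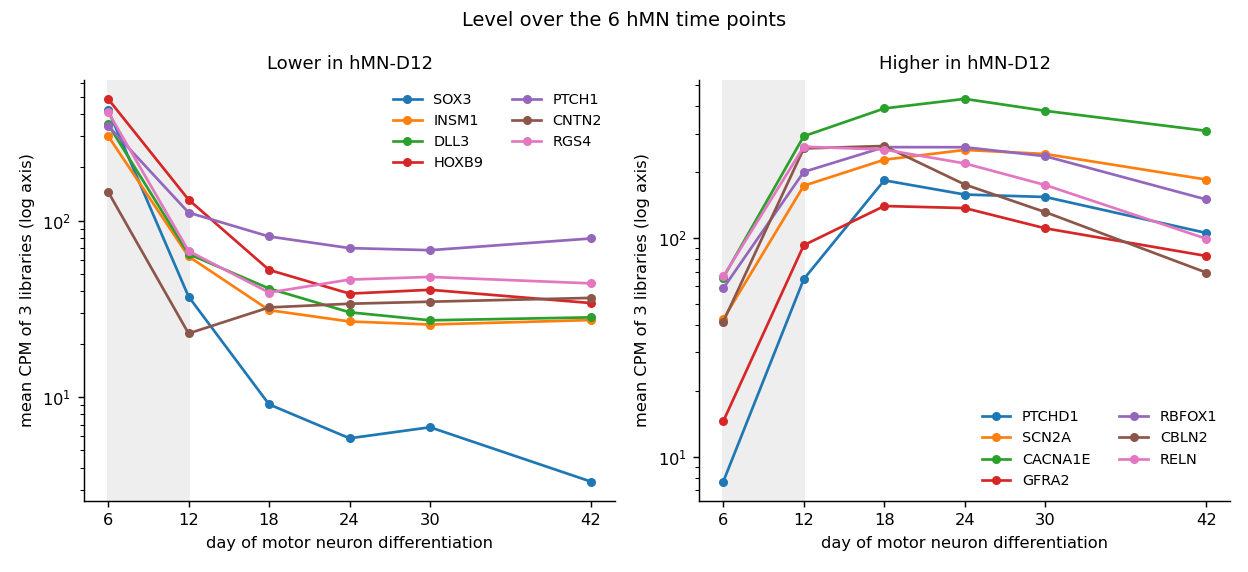
Mean CPM of 3 libraries (log axes) over the 6 hMN days for genes lower (left) and higher (right) in hMN-D12, with the interval from day 6 to day 12 shaded. SOX3 and INSM1 are at 9.12 and 31.1 CPM on day 18, while CBLN2 is at 264 CPM on day 18 after 257 CPM on day 12.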

How the data were processed

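The labels place 3 libraries in each of hMN-D12 and hMN-D6, and groups were taken from them alone. Total RNA had been extracted with TRIzol and made into libraries with the NEBNext Ultra RNA kit. The authors trimmed the reads (fastp), mapped them onto the human genome build hg38 (HISAT2) and deposited raw counts per gene, made by featureCounts. HISAT2 2.1.0 and featureCounts 1.5.3 are named in the submitters' processing notes. The annotation release and the strand setting are not given in the sources used here, so reads of overlapping and antisense genes cannot be told apart. Symbols were matched by identifier to GENCODE release 44 (60261 of 60603 identifiers, 99.44%), and no row without a gene identifier was present.

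Counts of the 18 hMN libraries were fitted together with edgeR 4.0.16 (filterByExpr, TMM scaling, robust quasi-likelihood fit, 1 coefficient per group), and hMN-D12 was contrasted with hMN-D6. P-values were two-sided and adjusted by Benjamini-Hochberg over all 20715 genes, with a threshold of 0.05, and the SE was taken from the fold change and its F value. On simulated counts with 200 changed genes, 56.2%, 84.8% and 92.2% of changes of 1.5-fold, 2-fold and 4-fold were found, and 12 of 19962 unchanged genes were called. In the data far more genes were called (9966), and the Benjamini-Hochberg cutoff depends on that number. The simulated rates therefore do not carry over to this comparison. Intervals on low counts cover counting error only, since reads carried no molecular identifiers. The alternatives were other scalings and filters, DESeq2 1.42.0, glmTreat, a fit of the 2 groups alone, hSCNPC-P10 libraries added, the replicate number as a block, and each library left out. No 2 libraries were identical (chi-square per degree of freedom 2.05 to 5.05 within groups).

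The genes, lists and tests were chosen with earlier results of these data known. Named genes were those the study's text turns on for motor neuron differentiation, the members of largest change in each list, the 15 called genes of largest change in each direction with at least 5 CPM in every library of the higher group and no overlap, and the 10 called genes of highest mean CPM in each direction. Further list members are named for their known role, and these were chosen after their values were seen. Some genes that these rules take are not reported here.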

Additional observations from a re-analysis of the deposited data

How the results depend on the processing

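Of 20715 genes tested, 5046 were called higher and 4920 lower in hMN-D12. Against a 2-fold change in glmTreat, which asks for more than a difference from 0, 458 were higher and 288 lower, and in the contrast of the 2 intervals 166 differences were positive and 81 negative, against 2932 and 2320. With each library left out in turn, 4619 to 4802 genes were higher and 4460 to 4640 lower, and 2417 to 2845 differences between the intervals were positive and 1739 to 2296 negative. All other alternatives stayed within 1.5 times of these counts (DESeq2 called 4402 higher and 4553 lower, and RLE scaling 4892 and 5104). Labels give both days the replicate numbers 1 to 3, but these share only a number: same-numbered libraries deviated together with correlations of -0.01 to 0.04, and with the replicate block 5059 genes were higher and 4932 lower. Of 264 named genes called, 155 lost the call under glmTreat and 20 under at least 1 other alternative, 5 not called were called under at least 1, and none changed direction past the threshold. Calls lost without 1 library are named beside their values. All libraries came from 1 cell line, and genes near 1 CPM rest on few reads.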

Other observations

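Of 20 genes of cholesterol synthesis and uptake, 16 were lower in hMN-D12 and none higher (median log2 fold change -0.30; DESeq2 called 17 lower and none higher). SC5D, of the last steps of synthesis, had 117, 117 and 118 CPM in hMN-D12, against 222, 208 and 215 CPM in hMN-D6 (log2 fold change -0.87 ± 0.04), and LSS, which closes the sterol rings, had 45 CPM in hMN-D12 against 65 in hMN-D6. Of 25 nuclear genes of the respiratory chain, 17 were lower and none higher (median -0.22; DESeq2 called 18 lower and none higher), for example COX4I1 (219 CPM in hMN-D12 against 313 in hMN-D6). None of the 13 protein-coding genes of the mitochondrial genome was called by edgeR or DESeq2, with 1 at an unadjusted p under 0.05. In glycolysis 12 of 24 were lower and 6 higher. The glucose transporters parted, with the ubiquitous SLC2A1 at 46.6, 45 and 46.2 CPM in hMN-D12, against 112, 113 and 123 CPM in hMN-D6 (log2 fold change -1.34 ± 0.06) and the neuronal SLC2A3 at 109, 111 and 107 CPM in hMN-D12, against 71.9, 70.6 and 72.2 CPM in hMN-D6 (log2 fold change 0.61 ± 0.04). HK2, the hexokinase of growing cells, fell to 3.13 CPM in hMN-D12 against 9.47 in hMN-D6, and HK1, the neuronal form, rose to 434 CPM in hMN-D12 against 371 in hMN-D6, while PFKP, the platelet-type phosphofructokinase, rose most (69.2 CPM in hMN-D12 against 27.3 in hMN-D6).

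Stress and death genes divided. Over all genes tested 24.4% were higher and 23.8% lower, and the share of apoptosis regulators that fell was close to the latter. Of 19 genes of the unfolded protein and integrated stress responses, 9 rose and 6 fell. The transcription factors ATF3 and DDIT3 rose (10.8 CPM in hMN-D12 against 7.19 in hMN-D6 and 9.41 CPM in hMN-D12 against 7.07 in hMN-D6, the second with 39.6% of its exon length shared with other genes), ATF4 fell to 166 CPM in hMN-D12 against 192 in hMN-D6, and PSAT1, of serine synthesis, fell most (26.3 CPM in hMN-D12 against 47.6 in hMN-D6). Of 20 apoptosis regulators 8 rose and 5 fell: HRK, a pro-apoptotic gene of neurons deprived of trophic factor, had 60.9, 66.4 and 58.7 CPM in hMN-D12, against 18.4, 20.5 and 20.7 CPM in hMN-D6 (log2 fold change 1.64 ± 0.08), BCL2, which blocks apoptosis, rose to 21.3 CPM in hMN-D12 against 12.6 in hMN-D6, and PMAIP1 (NOXA) fell most (0.717 CPM in hMN-D12 against 1.45 in hMN-D6). Among 18 immediate early genes 4 rose and 3 fell, neither above its share over all genes tested (24.4% higher and 23.8% lower). NR4A2 was highest in change (9.10, 8.98 and 8.51 CPM in hMN-D12, against 1.83, 1.92 and 1.81 CPM in hMN-D6, log2 fold change 2.25 ± 0.14). JUN was at 108 CPM in hMN-D12 against 63.3 in hMN-D6 and FOS at 18.4 CPM in hMN-D12 against 10.9 in hMN-D6. FOXP2, a factor of V1 interneurons, was at 15.7 CPM in hMN-D12 against 10.01 in hMN-D6 (log2 fold change 0.65 ± 0.08, edgeR adjusted p = 6.9e-09). Of 22 clustered protocadherin genes 9 rose and 7 fell, and the C-type gene PCDHAC2 rose most (7.06 CPM in hMN-D12 against 3.44 in hMN-D6, with 46.9% of its exon length shared). Among 3860 lncRNA genes tested, 800 were higher and 425 lower (median 0.14). Both shares were below those over all genes tested, 24.4% higher and 23.8% lower.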
